A study of Pan troglodytes with 6 samples.

Results

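CD antigens are cell surface proteins numbered by the antibodies that bind them, and many C-type lectins, siglecs, Fc receptors and leukocyte immunoglobulin-like receptors sit on the same immune cells. Genes of these families were taken from the array annotation by symbol: numbered CD genes, CLEC genes, SIGLEC genes, FCGR and FCER genes, LILR genes, and the scavenger receptors MARCO, VSIG4, STAB1 and STAB2. The annotation had to give a single symbol. The rule found 99 rows and 98 genes among 12584 genes with a single symbol, and only CD22 had a second, dimmer row. A further 18 rows named such a gene beside another gene and were not used. Each gene was placed by judgement with a cell type from which its antigen is known, although many are found on several, and with earlier results of these data known. This put 40 with macrophages and other myeloid cells, 27 with lymphocytes, 9 with endothelium, 3 with neural cells and 17 with no single cell type. CD248, of pericytes and fibroblasts, was counted with endothelium, and CD9, also of many epithelia, with neural cells. SIGLEC8, of eosinophils and mast cells, and SIGLECL1 stood alone.

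The samples were untreated cerebellum and liver of chimpanzees (Pan troglodytes), with 3 arrays per tissue, hybridised to a human exon array. By the labels, replicates 1, 2 and 3 of each tissue were 27, 37 and 30 years old, the first of them female and the others male, and each array was labelled a biological replicate. No label says that the tissues of one number came from one animal. Whole tissue was used, so fewer cells of a type and less RNA per cell cannot be told apart in any value below.

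Liver and brain each hold a resident macrophage. Kupffer cells line the liver sinusoids and clear particles, complexes and old red cells from blood with scavenger, lectin and Fc receptors, a task they share with the sinusoidal endothelium. Microglia are the macrophages of the brain, where a tight vascular barrier keeps most blood leukocytes out, and neurons carry CD200 and CD47, which restrain myeloid cells through CD200R1 and SIRPA.

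Both tissues carried their own markers. All 10 measured markers of cerebellar neurons were higher in cerebellum and all 7 of hepatocytes were higher in liver. Summed hepatocyte markers were 85.5 to 168 in cerebellum against 21780 to 27021 in liver (intensity), and summed neuronal markers were 16922 to 18080 against 306 to 469. The deposited intensities have the same distribution on all 6 arrays, with a median of 96.3, and carry no detection calls. Differences below are cerebellum minus liver on a log2(intensity + 16.8) scale, so that they understate the change of dim genes. Tests are limma's, two-sided, adjusted over all 15143 features, with a threshold of 0.05. Levels of different genes come from different probes and are not compared with each other.

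Most of these genes that differed were higher in liver. Of the 98, 52 were higher in liver, where 23.9% of all features were, and 6 were higher in cerebellum, where 26.7% of all features were. Of all features 50.6% differed in either direction. The median log2 difference was -0.76 over the 98 genes and 0.04 over all features. Values of the tissues did not overlap for 55 genes toward liver and 5 toward cerebellum, against 28.5% and 31.0% of all features, which make 59.4% together. With a difference of at least 2-fold required as well, 42 and 4 remained, against 15.8% and 17.2% of all features. The low side was often dim. In cerebellum 19 of the 98 genes had all 3 values under 16.8, the 10th percentile of all values, and in liver 5 had. A filter on mean intensity passed 56 of the 98 genes.

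**Figure D1:**
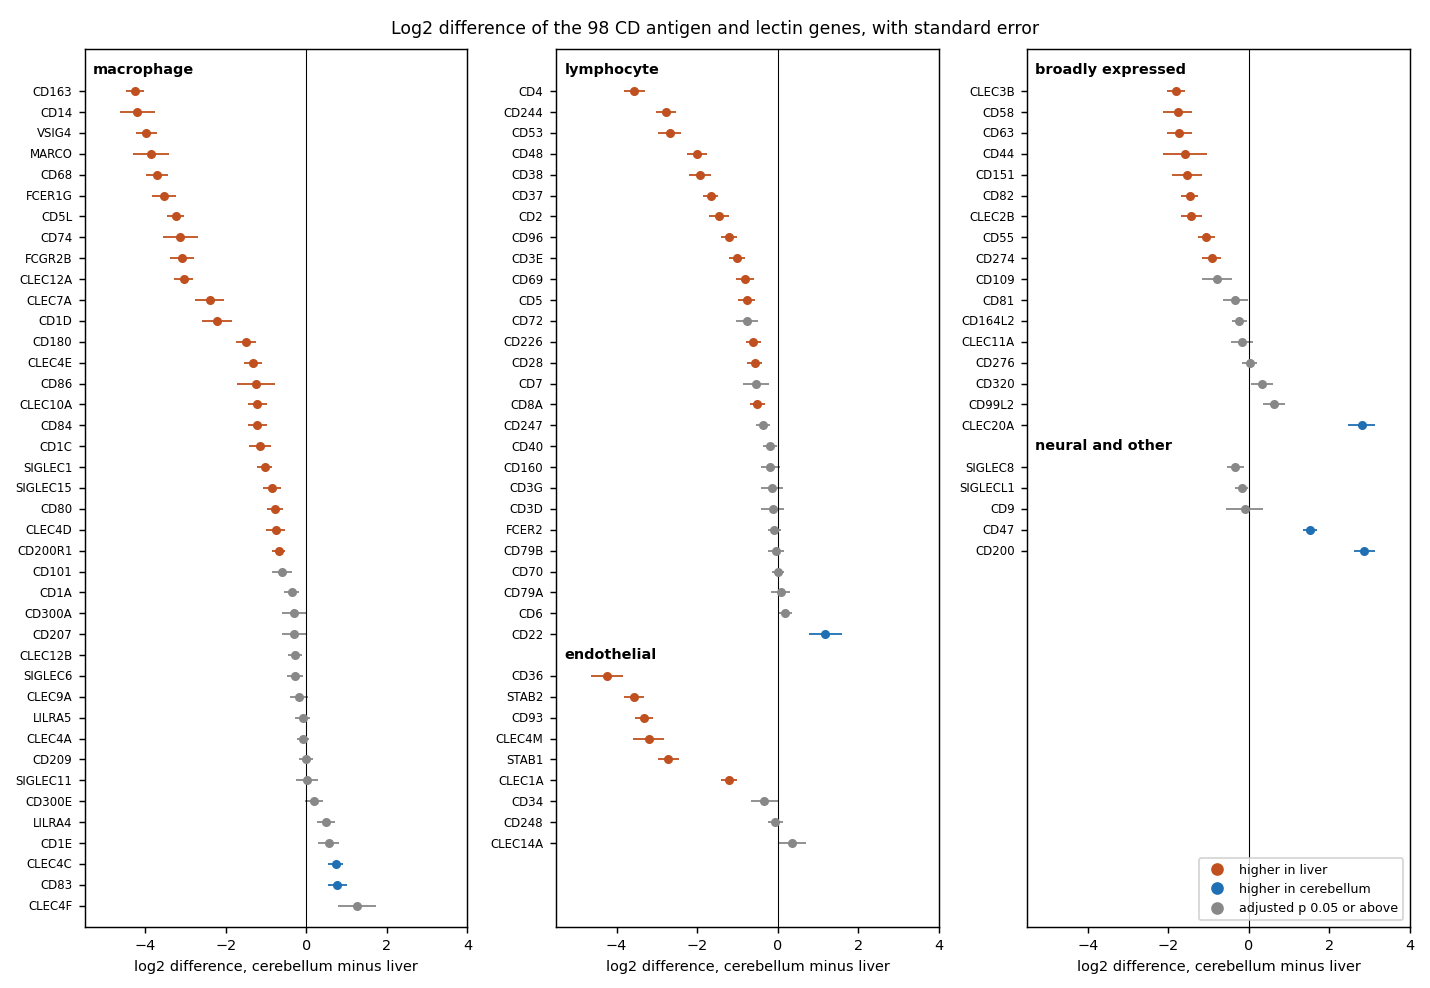
Log2 difference (cerebellum minus liver, log2(intensity + 16.8)) of each of the 98 genes by cell type group, with bars for the standard error of the limma fit and colour for the call. Macrophage, lymphocyte and endothelial antigens spread to the left, toward liver, down to -4.26 for CD163, and CD200 and CLEC20A lie farthest to the right, at 2.87 and 2.80.

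The size of this imbalance depends on how the tissues are scaled. With arrays aligned on 85 ribosomal protein, proteasome and respiratory chain genes, the median of all features moved from 0.04 to 0.51, 36 of the 98 genes were higher in liver and 13 in cerebellum. Of the calls, 26.5% were then toward cerebellum, against 10.3% on the deposited scale. For all features these shares were 74.8% and 52.8%. Under the alignment 2140 of 15143 features were higher in liver and 6343 in cerebellum, and aligned counts below stand beside these. Whether those 85 genes hold equal levels in both tissues was not tested. The alignment moves every difference toward cerebellum by the same amount, so calls toward cerebellum could not change direction. Among calls toward liver the smallest difference, that of CD8A, went from -0.51 to -0.03, so none of these changed direction either.

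**Figure D2:**
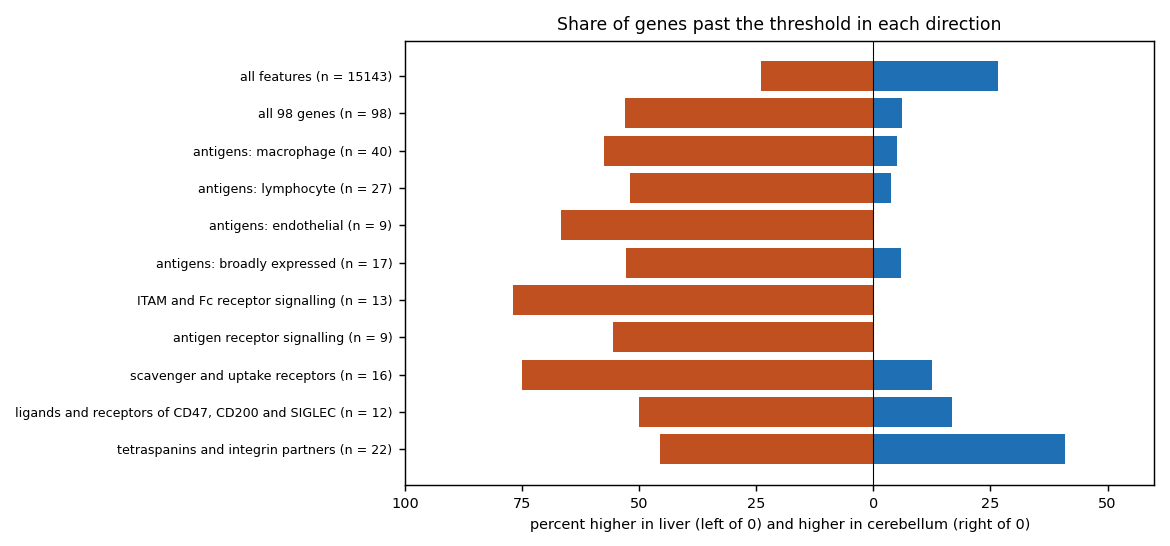
Percent of genes higher in liver (left of 0) and higher in cerebellum (right of 0) at an adjusted p under 0.05, for all features, the 98 genes, their 4 larger groups and lists of genes that act with them. The bars of the 98 genes reach 53.1% toward liver and 6.1% toward cerebellum, against 23.9% and 26.7% of all features.

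Macrophage antigens were higher in liver for 23 of 40 genes (57.5%, against 23.9% of all features). They were higher in cerebellum for 2 (5.0%, against 26.7%), with a median log2 difference of -0.81. With the arrays aligned the counts were 16 and 6 and the median was -0.34. CD163, which takes up haemoglobin bound to haptoglobin, was at 8.54, 19.2 and 7.85 on cerebellum arrays 1 to 3 and at 517, 434 and 634 on liver arrays 1 to 3. The lowest liver value was thus far above the highest cerebellum value (log2 difference -4.26, standard error 0.22, adjusted p = 1.45e-06). VSIG4, the complement receptor of the immunoglobulin family that marks tissue macrophages, was at 24.4, 31.2 and 12.99 against 672, 440 and 712 (log2 difference -3.98, adjusted p = 4.44e-06). MARCO, a collagen-like scavenger receptor that binds bacteria, was at 9.51, 15.3 and 19.8 against 400, 219 and 950 (-3.86, adjusted p = 1.41e-04). Its liver values spread widely, yet none came near the cerebellum values. CD5L, a protein that macrophages secrete into plasma, was at 36.2 ± 4.82 against 496 ± 130, given as mean ± SD over n = 3 arrays as elsewhere below, and differed by -3.25.

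CD14, the co-receptor for bacterial endotoxin, was at 29.3, 167 and 57.8 on the cerebellum arrays and at 1343, 1462 and 1927 on those of liver (log2 difference -4.20, standard error 0.45, adjusted p = 8.53e-05). Cerebellum replicate 2 was the highest of its tissue for CD14. It was also the highest for CD68, a lysosomal glycoprotein, at 63.5 beside 33.0 and 33.1, where liver gave 588, 705 and 1034 (-3.72, adjusted p = 9.54e-06). CD74, the invariant chain that guides MHC class II molecules, was at 57.2, 100 and 34.8 against 460, 461 and 1302 (-3.13, adjusted p = 4.50e-04). Liver replicate 3 held by far the most CD74 signal.

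Both measured Fc receptor genes of this group were higher in liver. FCER1G, the signalling chain shared by several Fc receptors and lectins, was at 14.2, 18.4 and 8.57 against 328, 219 and 517 (log2 difference -3.54, adjusted p = 2.07e-05). FCGR2B, the inhibitory receptor for IgG that liver sinusoidal endothelium also carries, was at 21.9, 10.04 and 4.56 against 200, 163 and 333 (-3.09, adjusted p = 5.33e-05). Near-identical gene copies exist for FCGR2B, so its signal can be shared with them.

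Of the 17 CLEC genes in all groups, 9 were higher in liver (52.9%, against 23.9% of all features). In cerebellum 2 were higher (11.8%, against 26.7%). CLEC12A, an inhibitory lectin of myeloid cells, was at 9.53 ± 2.23 against 208 ± 71.6 (log2 difference -3.05), and CLEC7A, which binds fungal beta-glucan, at 12.8 ± 11.2 and 143 ± 66.0 (-2.41). CLEC4E and CLEC4D, paired receptors for mycobacterial and fungal glycolipids, differed by -1.33 and -0.77, and CLEC10A, a galactose lectin of dendritic cells and macrophages, by -1.23. The mean of CLEC4E in cerebellum lay below 0, at -0.281. CLEC4A, CLEC9A, CLEC12B and the dendritic cell lectins CD207 and CD209 did not pass. CD209 was at 50.7, 56.6 and 43.8 against 54.7, 48.1 and 49.6, and its tissues overlapped fully (-0.01 with a standard error of 0.16, adjusted p = 0.955).

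Other genes act in antigen display and costimulation. CD1D, which shows lipids to natural killer T cells, was at 11.9, 9.49 and 8.64 in cerebellum and at 208, 53.2 and 109 in liver (log2 difference -2.23, adjusted p = 0.00115). Its neighbour CD1C differed by -1.16, a call lost under the alignment (adjusted p = 0.0742), while CD1A and CD1E, at -0.37 and 0.55, did not pass. CD80 and CD86, the ligands of CD28, differed by -0.78 and -1.26, and the call of CD80 was lost under the alignment (-0.30, adjusted p = 0.362). The size for CD86 rests on liver replicate 3, which gave 165 beside 30.8 and 36.5, and without that array the difference was -0.64 (adjusted p = 0.0247). Its call at an adjusted p of 0.0496 was lost without any 1 of the cerebellum arrays, at the higher pseudocount and under the alignment. Of 6 SIGLEC genes 2 (33.3%) were higher in liver, near the 23.9% of all features. They were SIGLEC1, the sialic acid receptor of tissue macrophages, and SIGLEC15, at -1.04 and -0.85. Both calls were lost under the alignment, that of SIGLEC15 also without cerebellum replicate 3 or liver replicate 2. The call of CLEC4D was lost under the alignment and without any 1 cerebellum array or liver replicate 2, with adjusted p from 0.0522 to 0.318. The other higher genes in liver were CD180, CD84 and CD200R1, at -1.50, -1.22 and -0.69.

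Both myeloid genes that were higher in cerebellum belong to dendritic cells in textbooks. CD83, an antigen of mature dendritic cells, was at 86.6, 68.1 and 101 in cerebellum and at 46.3, 27.3 and 58.9 in liver (log2 difference 0.77, standard error 0.24, adjusted p = 0.0266). CLEC4C, a lectin of plasmacytoid dendritic cells, was at 23.4, 15.0 and 22.6 against 9.72, 5.44 and 2.26 (0.72, adjusted p = 0.0139). CLEC4C was dim in both tissues, while CD83 passed the filter on mean intensity. Leaving out cerebellum replicate 1 or 3 ended both calls (adjusted p from 0.0561 to 0.104), as did leaving out liver replicate 2 for CD83 (0.0852). CLEC4F, a lectin of Kupffer cells in rodents, was at 129, 65.9 and 97.3 against 73.0, 4.49 and 36.6 and did not pass (1.25, adjusted p = 0.056). It passed under the alignment, with dim features left out and without liver replicate 1 (adjusted p = 0.0163, 0.0470 and 0.0117). Without liver replicate 2, which gave the 4.49, the difference of CLEC4F fell to 0.685 (adjusted p = 0.133). LILRA4, LILRA5, CD101, CD300A, CD300E, SIGLEC6 and SIGLEC11 did not pass either, with log2 differences from -0.61 to 0.49.

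Most measured markers of the resident macrophages were higher in liver as well, where 23.9% of all features were. Of 11 Kupffer cell markers outside the 98 genes 11 were higher in liver, and their summed intensity lay between 224 and 408 on cerebellum arrays and between 4349 and 7431 on liver arrays. Of 10 measured microglia markers 7 were higher in liver, with sums of 933 to 1224 and 2647 to 5088. The 3 that did not pass were P2RY12, TMEM119 and SALL1, with log2 differences of 0.59, -0.41 and 0.46, whereas 4 of the 7 that passed, CSF1R and the complement genes C1QA, C1QB and C1QC, stand on the Kupffer cell list too. SALL1 alone gave 577, 758 and 642 of the sums on cerebellum arrays 1 to 3, and 482, 512 and 427 on liver arrays 1 to 3. The sums of this list thus do not measure microglia alone. No marker of either list was at or below 0 on any array. Red cell markers were higher in liver for 1 of 3 genes, and monocyte and neutrophil markers for 5 of 8. The part of these cells in the differences above was not tested.

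**Figure D3:**
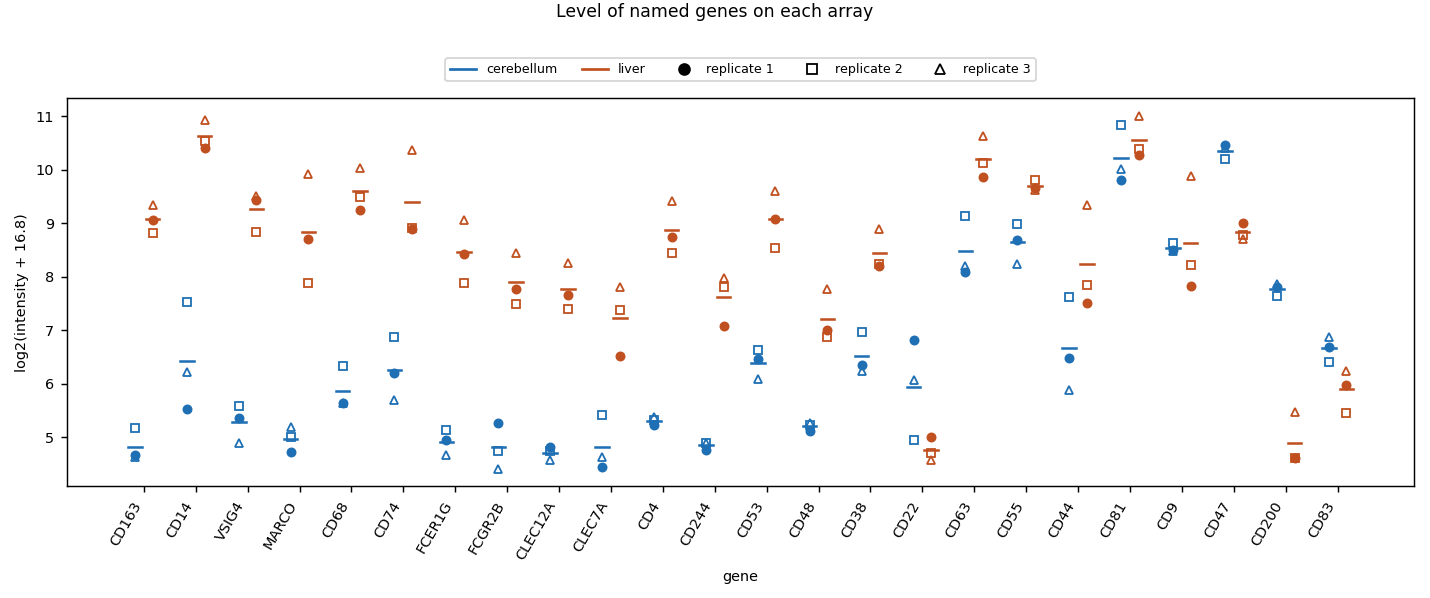
Level of 24 named genes on each array as log2(intensity + 16.8), with circles, squares and triangles for replicates 1 to 3 and bars for tissue means. From CD163 to CD38 every liver value lies above every cerebellum value, the tissues overlap for CD22, CD44, CD81 and CD9, and CD47, CD200 and CD83 lie higher in cerebellum.

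Of 27 lymphocyte antigens 14 were higher in liver (51.9%, against 23.9% of all features). In cerebellum 1 was higher (3.7%, against 26.7%), and the median log2 difference was -0.57. With the arrays aligned the counts were 8 and 2 and the median was -0.10. CD4, the co-receptor of helper T cells that primate monocytes and macrophages also carry, was at 20.6, 23.2 and 24.6 in cerebellum and at 412, 330 and 662 in liver. It had the largest difference of the group (-3.56, standard error 0.25, adjusted p = 7.71e-06). The signal of its counterpart CD8A, of cytotoxic T cells, was 51.8, 39.6 and 54.0 against 68.1, 90.2 and 69.8. That call (-0.51, adjusted p = 0.0463) was lost without any 1 of the 6 arrays, under the alignment and with the other variance prior, with adjusted p from 0.0503 to 0.916.

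CD244, a receptor of the SLAM family on natural killer cells, was at 10.5, 12.9 and 12.8 against 118, 206 and 235 (log2 difference -2.77, adjusted p = 2.94e-05), and its ligand CD48 at 18.0, 20.9 and 21.7 against 112, 101 and 201 (-2.01, adjusted p = 1.99e-04). CD53 and CD37, tetraspanins of leukocytes, differed by -2.68 and -1.66. CD53 was at 71.3, 81.7 and 51.5 in cerebellum and at 525, 356 and 755 in liver. CD38, an enzyme that consumes NAD on plasma cells and many other cells, was at 64.7, 108 and 58.4 against 276, 286 and 458 (-1.93, adjusted p = 4.25e-04). In each of these genes the 3 liver values lay above all cerebellum values.

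Other genes define T and B cells. CD2, the adhesion receptor of T and natural killer cells, differed by -1.46, CD96 by -1.20 and CD3E by -1.02, with liver means of 70.4 ± 25.7, 50.5 ± 14.7 and 33.7 ± 10.3. CD69, CD5, CD226 and CD28 differed by -0.81, -0.77, -0.61 and -0.57, and their calls were lost under the alignment, as was that of CD3E (adjusted p = 0.0786). Leaving out single arrays also ended the calls of CD5 (cerebellum 3 or liver 2), CD226 (cerebellum 1 or 3 or liver 3) and CD28 (cerebellum 1 or 3 or liver 2 or 3). CD3D and CD3G, which form the T cell receptor complex with CD3E, had overlapping tissues and differences of -0.13 and -0.14. CD79A and CD79B, the signalling chains of the B cell receptor, were at 0.08 and -0.04. CD247, CD72, CD7, CD40, CD160, CD6 and the low-affinity IgE receptor FCER2 did not pass either, with differences from -0.76 to 0.18. CD70 was below 0 on all 6 arrays and gives no comparison. Other markers of T and natural killer cells were higher in liver for 7 of 10 genes, where 23.9% of all features were. Those of B and plasma cells were higher in liver for 4 of 8. Of the latter JCHAIN, the joining chain of secreted immunoglobulins, was at 4.40 ± 2.36 against 696 ± 62.5. SDC1 differed by -3.97, but POU2AF1 and TNFRSF17 only by -1.05 and -0.99, and BLK, MZB1, FCRL5 and PAX5 did not pass. The part of plasma cells in the values of JCHAIN and SDC1 was not tested. PAX5, the B cell transcription factor, was at 66.0 ± 22.6 and 62.5 ± 5.73.

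CD22, a siglec of B cells, was the single lymphocyte antigen higher in cerebellum. It was at 95.8, 14.2 and 50.4 in cerebellum and at 15.4, 9.47 and 7.01 in liver, so that cerebellum replicate 2 lay within the liver range (log2 difference 1.18, standard error 0.41, adjusted p = 0.0417). The call was lost at the higher pseudocount of 30.3 and without any 1 array other than cerebellum replicate 2 (adjusted p from 0.0545 to 0.123). The second row of CD22 did not differ past the threshold, at -0.06 (adjusted p = 0.872), and with both rows averaged the difference was 0.56 (adjusted p = 0.184). Cerebellum replicate 1, the highest for CD22, was also the highest for the myelin genes. MAG, a myelin protein of the siglec family, was at 145, 82.2 and 69.5 in cerebellum, and MBP at 4297, 966 and 1481. The part of myelin-forming cells in the value of CD22 was not tested.

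Of 9 endothelial antigens 6 (66.7%) were higher in liver and 0 in cerebellum by limma, against 23.9% and 26.7% of all features. Toward cerebellum the count was also 0 at an unadjusted p under 0.05. The median log2 difference was -2.72, and the same 6 were called under the alignment. STAB2, the hyaluronan scavenger receptor of the liver sinusoid, was at 10.6, 10.5 and 10.9 in cerebellum and at 253, 252 and 468 in liver (-3.58, adjusted p = 6.86e-06). Its relative STAB1, also found on macrophages, was at 27.3, 29.4 and 31.1 against 273, 197 and 432 (-2.72, adjusted p = 4.92e-05). CD93, a receptor of endothelium and monocytes, was at 16.5, 21.2 and 16.2 against 253, 329 and 433 (-3.33, adjusted p = 4.99e-06). In these genes liver replicate 3 was the highest array.

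CD36 and CLEC4M were high in liver as well, but lowest on replicate 3. CD36, a receptor for fatty acids and oxidised lipids on sinusoids, platelets and macrophages, was at 774, 816 and 264 in liver against 17.01, 9.38 and 14.4 in cerebellum (log2 difference -4.24, adjusted p = 3.74e-05). CLEC4M, a lectin of liver and lymph node sinusoids that binds mannose-rich glycans, was at 278, 251 and 80.7 against 4.32, 5.54 and 4.11 (-3.21, adjusted p = 1.77e-04). Against the mean of the other liver arrays, replicate 3 lay at -1.53 for CD36 and -1.53 for CLEC4M, but at 0.85 for STAB1, 0.85 for STAB2 and 0.56 for CD93 on the log2 scale. Among other endothelial genes, KDR, the main receptor for VEGF, was also lowest there, at 356, 538 and 202, while CDH5, the cadherin of endothelial junctions, was highest, at 161, 186 and 349. CLEC1A, a lectin of endothelium and dendritic cells, had cerebellum values of 0.768, -1.43 and -4.76 and liver values of 20.5, 15.5 and 33.6, so that only its direction can be read.

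The other 3 endothelial antigens did not pass. CD34, of capillary endothelium and blood stem cells, was at 28.02, 61.2 and 20.7 in cerebellum and at 32.1, 75.8 and 40.8 in liver (log2 difference -0.33, adjusted p = 0.434). CLEC14A, an endothelial lectin-like protein, was at 267, 109 and 290 against 131, 189 and 150 (0.37, adjusted p = 0.395). CD248, of pericytes and fibroblasts, differed by -0.06. Without cerebellum replicate 2 the tissues of CLEC14A no longer overlapped and it was called higher in cerebellum (0.78, adjusted p = 0.0188). Of 15 measured markers of endothelium other than these antigens 12 were higher in liver and 1 in cerebellum, against 23.9% and 26.7% of all features. The 1 was SLC2A1, at a log2 difference of 0.99, and CLDN5 and VWF did not pass. Summed, the 15 markers lay between 587 and 1043 on cerebellum arrays and between 3201 and 4030 on liver arrays. Cerebellum replicate 2 was the highest cerebellum array for 13 of the 15, and the part of vessel content in these differences was not tested.

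**Figure D4:**
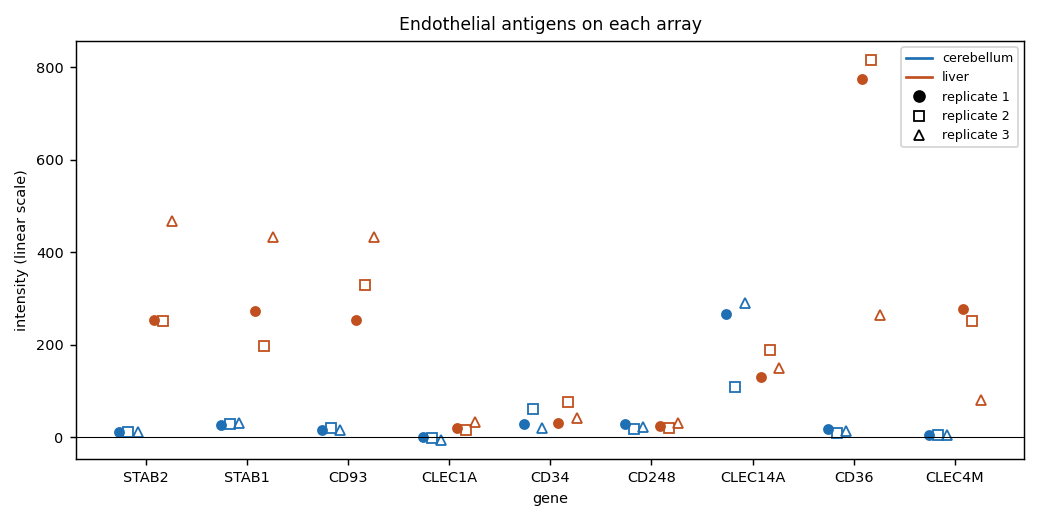
Intensity (linear scale) of the 9 endothelial antigens on each array, with circles, squares and triangles for replicates 1 to 3. STAB2, STAB1 and CD93 are highest on liver replicate 3, CD36 and CLEC4M are lowest on it among the livers, and the tissues overlap for CD34, CD248 and CLEC14A.

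Of the 3 antigens placed as neural, CD200 and CD47 were higher in cerebellum. The placement was made with earlier results of these data known, so the direction of this group is not a separate result. CD200, a ligand on neurons that quiets myeloid cells, was at 207, 183 and 217 in cerebellum and at 7.74, 7.53 and 27.6 in liver (log2 difference 2.87, standard error 0.25, adjusted p = 2.90e-05). Its receptor CD200R1, on myeloid cells, had the opposite direction, at 18.8, 23.3 and 19.99 against 36.5, 50.1 and 45.6 (-0.69, adjusted p = 0.00874), but that call was lost under the alignment (-0.22, adjusted p = 0.373). A row that named CD200R1 beside CD200R1L, not among those used, lay on the cerebellum side at 0.53 and did not pass. CD47, which marks cells as not to be eaten, was at 1396, 1159 and 1334 against 493, 422 and 401 (1.53, standard error 0.17, adjusted p = 1.20e-04). Its receptor SIRPA, of myeloid cells and neurons, was higher in cerebellum too, at 980, 1253 and 1052 against 388, 384 and 325 (1.54, adjusted p = 1.35e-04). Neither CD200 nor CD47 had a liver value that reached the lowest cerebellum value. Leaving out any 1 array kept both calls.

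CD9, a tetraspanin of myelin and of many epithelia, did not differ past the threshold. Its cerebellum values were 342, 377 and 341, while the liver values were 209, 279 and 920. The difference of -0.10 had a standard error of 0.46 (adjusted p = 0.875), and without liver replicate 3 it was 0.52 (adjusted p = 0.0538).

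Antigens found on many cell types were higher in liver for 9 of 17 genes and higher in cerebellum for 1. These are 52.9% and 5.9%, against 23.9% and 26.7% of all features. With the arrays aligned the counts were 6 and 3. The 9 included the tetraspanins CD63, CD82 and CD151, which organise adhesion and vesicle proteins in membranes. CD63, of late endosomes and exosomes, was at 254, 541 and 278 against 910, 1097 and 1555 (log2 difference -1.73, adjusted p = 0.00191), CD82 differed by -1.47 and CD151 by -1.53. CD81, at 879, 1811 and 1016 against 1228, 1324 and 2033, overlapped between the tissues (-0.34, adjusted p = 0.392). Of the 7 tetraspanins among the CD antigens, a grouping made after the values were seen, 5 were higher in liver by limma, and CD9 and CD81 did not pass.

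Several of these genes act on adhesion and complement. CD58, the ligand of CD2, was at 11.4, 19.97 and 11.4 against 48.1, 79.7 and 169 (log2 difference -1.77, adjusted p = 0.00312). CD55, which protects cells from complement, was at 396, 490 and 286 against 791, 882 and 765 (-1.05, adjusted p = 0.00375), a call that was lost under the alignment (-0.58, adjusted p = 0.0546). CLEC3B, the plasma protein tetranectin, was at 63.0 ± 14.4 and 264 ± 59.7 and differed by -1.81. CD44, the hyaluronan receptor, was at 72.0, 179 and 42.6 against 165, 214 and 631, with overlap. Its call (-1.57, adjusted p = 0.0401) was lost under the alignment and when cerebellum array 1 or 3 or liver array 2 or 3 was left out, with adjusted p from 0.0641 to 0.139. Without liver replicate 3 its difference was -1.02. CLEC2B and CD274, which encodes the ligand PD-L1, differed by -1.43 and -0.92, and the call of CD274 was lost under the alignment (-0.45, adjusted p = 0.141). CD276, CD320, CD99L2, CD109, CD164L2 and CLEC11A did not pass, with differences from -0.79 to 0.62. CD320 and CD99L2 passed toward cerebellum under the alignment, at 0.80 and 1.09.

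CLEC20A, a lectin-like gene, was the broadly placed gene higher in cerebellum. It was at 90.3, 58.7 and 197 there and at -11.6, -29.0 and 1.27 in liver (log2 difference 2.80, standard error 0.34, adjusted p = 1.93e-04). The liver values are near or below 0, so the difference depends on the pseudocount and no fold is given. SIGLEC8 and SIGLECL1 did not pass, at -0.33 and -0.18.

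Genes that act with these receptors were read from lists of partners. Their counts stand beside 23.9% of all features higher in liver and 26.7% higher in cerebellum. Of 13 genes of ITAM and Fc receptor signalling 10 were higher in liver and 0 in cerebellum by limma, the same counts as at an unadjusted p under 0.05. LCP2, an adaptor below these receptors, was at 26.5 ± 9.14 against 221 ± 84.1 (log2 difference -2.43). TYROBP, the adaptor of many myeloid receptors, differed by -1.57 and the kinase SYK by -1.34. Under the alignment the counts of this list were 10 and 1. Of 9 genes of antigen receptor signalling 5 were higher in liver and 0 in cerebellum by limma, and 6 and 0 at an unadjusted p under 0.05. With the arrays aligned 3 were higher in liver. BLNK, an adaptor of B cells that macrophages also use, differed by -3.04 and PTPRC, the leukocyte antigen CD45, by -2.56, while ZAP70, a kinase of T cells, was at -0.08 and did not pass.

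Partners of antigen display and uptake had both directions. Of 5 genes of MHC class II presentation 3 were higher in liver: IFI30, a lysosomal thiol reductase, CTSS, the protease that trims CD74, and the class II activator CIITA, at -4.12, -3.19 and -0.78 on the log2 scale. RFXAP, a general transcription factor of class II promoters, was higher in cerebellum at 343 ± 105 against 50.9 ± 9.47 (2.38, adjusted p = 6.77e-05). With the arrays aligned the list had 2 genes in each direction. Of 16 other scavenger and uptake receptors 12 were higher in liver and 2 in cerebellum, and 8 and 2 with the arrays aligned. ASGR2, part of the asialoglycoprotein receptor of hepatocytes, differed by -4.80, and COLEC12, a scavenger lectin of endothelium, by 1.27.

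Of 12 genes that encode other partners of CD47 and CD200 or make and carry the sialic acids that siglecs bind, 6 were higher in liver and 2 in cerebellum, and 5 and 2 with the arrays aligned. ST6GAL1, which makes the alpha-2,6-linked sialic acid that CD22 binds, was at 38.0 ± 11.7 against 2196 ± 155 (log2 difference -5.36, adjusted p = 3.30e-07), and ST8SIA1, an enzyme of brain gangliosides, was higher in cerebellum by 1.72. Of 22 other tetraspanins and integrin partners 10 were higher in liver and 9 in cerebellum, with a median of -0.19. Under the alignment the counts were 7 and 9 and the median turned to 0.29. TSPAN5 and TSPAN6 differed by 5.12 and -3.84.

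Many of the 98 genes lie near each other. In the order of coding genes of a RefSeq table for the chimpanzee assembly NHGRI_mPanTro3-v2.0_pri, which placed 97 of them, 43 fell into 14 clusters with at most 10 other listed genes between neighbours. Beside CD163, at a log2 difference of -4.26, lay CLEC4C at 0.72, CLEC4A at -0.09, CLEC4D at -0.77 and CLEC4E at -1.33. In the lectin cluster that runs from CD69 to CLEC7A, CLEC12A was at -3.05 and CLEC7A at -2.41, while CLEC12B and CLEC9A, which lie between them, were at -0.28 and -0.19. CLEC4M at -3.21 adjoined CD209 at -0.01 and FCER2 at -0.08. CD244, CD48 and CD84 of the SLAM cluster were all higher in liver. CD58 and CD2 were too, at -1.77 and -1.46, while CD101 of their cluster did not pass, at -0.61. Related genes can share probe signal where their sequences are alike, and this was not tested.

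The liver arrays were not alike for these genes. Of the 52 genes higher in liver, 40 were highest on liver replicate 3, a male of 30 years. Replicate 2 was highest for 7 and replicate 1 for 5. These 52 were called from the same liver values, so their share is not set against that of all genes. Of all 98 genes, called or not, 58 (59.2%) were highest on replicate 3, against 34.6% of all 12584 genes. The median shift of replicate 3 against the other livers was 0.67 for the 23 macrophage antigens higher in liver, 0.49 for the 14 lymphocyte antigens, 0.55 for the 6 endothelial antigens and 0.63 for the 9 broadly placed antigens (log2). Over all genes of these groups, called or not, the medians were smaller, at 0.33, 0.43, 0.29 and 0.40. Among the 52 genes the largest shifts were those of CD86 at 1.85, CD44 at 1.66, MARCO at 1.63, CD74 at 1.47 and CD151 at 1.41. The lowest were those of CD36 and CLEC4M, followed by CD5 at -0.59. CD1D had another order, with replicate 1 highest and replicate 2 lowest. Kupffer cell markers lay 0.80 and endothelial markers 0.15 above the other livers on replicate 3. The 2 lists share LYVE1, and the part of the cell mix in these shifts was not tested. Without liver replicate 3 the counts over the 98 genes were 50 higher in liver and 6 higher in cerebellum.

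**Figure D5:**
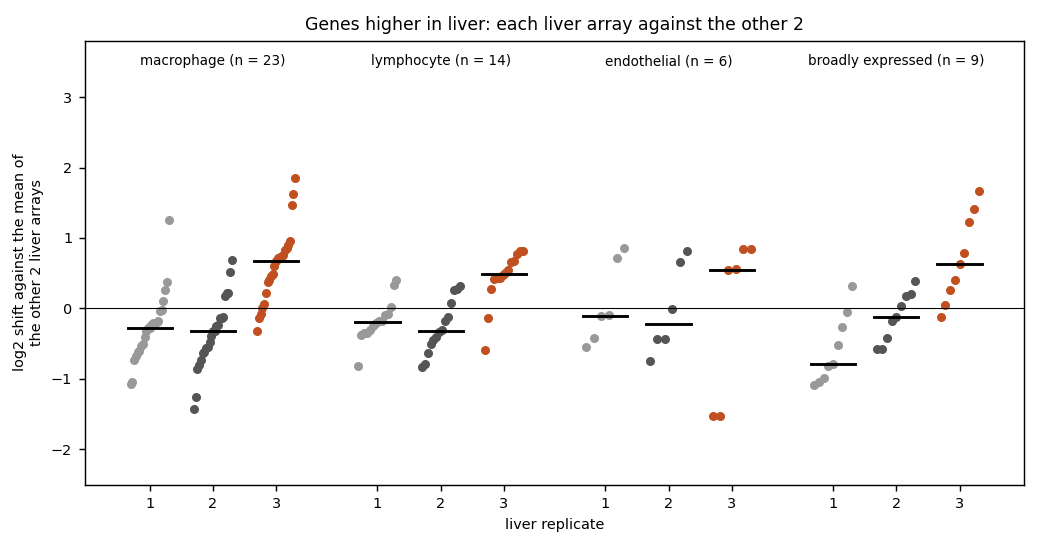
Log2 shift of each liver array against the mean of the other 2 liver arrays, for the 52 genes higher in liver by group, 1 point per gene, with a bar at the median. These genes were called from the same liver values. Points of replicate 3 lie mostly above 0, with medians from 0.49 to 0.67, and CD36 and CLEC4M form the low pair at -1.53 in the endothelial group.

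The cerebellum arrays differed less on the log2 scale for the 52 genes higher in liver, but many of these were dim there. On cerebellum arrays 1 to 3, 22, 21 and 26 of the 52 lay under 16.8, against 4, 1 and 0 on liver arrays 1 to 3. Values this dim give small shifts on that scale, so the spread of the 2 tissues cannot be compared. Of the same 52 genes 25 were highest on cerebellum replicate 2, 15 on replicate 3 and 12 on replicate 1, and the median shifts were 0.05, -0.07 and -0.03. These 52 were called from the same values, so their share is not set against that of all genes. Of all 98 genes, called or not, 35 (35.7%) were highest on replicate 2, against 39.7% of all 12584 genes. Replicate 2 of cerebellum was the highest for CD14, CD68, CD74, CD63 and CD44. Summed over the 40 macrophage antigens, the cerebellum arrays lay between 1689 and 1748 and the liver arrays between 6752 and 10866 (intensity). Over the 27 lymphocyte antigens they lay between 927 and 1053 and between 2500 and 3675.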

How the data were processed

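RNA of 3 cerebella and 3 livers was measured on 1-colour exon arrays. The authors deposited linear intensities for 15143 features. The submitters' processing notes name GCOS, and the sources used here do not give the background correction or probe summary. The 6 columns hold the same values in different orders, so they had been quantile normalized, and 93 values per array lie below 0. These were set to 0, 16.8 (the 10th percentile) was added and log2 taken. limma 3.58.1 in R 4.3.3 compared the tissues without a block, with Benjamini-Hochberg adjustment over all features, after a check on simulated data. Where rows shared a symbol the brighter was kept. Named genes are, per group, the 5 largest called differences, the 3 brightest genes and called genes against the majority, and per partner list the largest called gene in each direction; others were named after their values were seen. The genes and lists were chosen with earlier results of these data known. Within a tissue the labels give each array its own age, so the arrays are separate animals, and their number limits precision. Alternatives were pseudocounts of 6.42 and 30.3, a filter at a mean intensity of 53.4, a replicate block, alignment on general genes, another variance prior, a 2-fold limit, averaged rows and each array left out. A planned comparison of protein sequences was not run.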

Additional observations from a re-analysis of the deposited data

How the results depend on the processing

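No called gene changed direction under any alternative fit. Of the 52 genes higher in liver 36 were called in every alternative fit that measured them, and of the 6 higher in cerebellum 3. Left-out arrays gave 44 to 52 genes higher in liver and 3 to 8 in cerebellum; by group toward cerebellum they gave 0 to 4 macrophage, 0 to 1 lymphocyte, 0 to 1 endothelial and 1 to 2 broadly expressed genes. The replicate block gave 52 and 7 genes, ended the call of CD8A (adjusted p = 0.0872) and added CD72 and CLEC4F (0.0322 and 0.00718). Same-numbered arrays deviated together with correlations of 0.11, 0.16 and -0.14, so the numbers were not taken as pairs. The alignment gave 6343 features higher in cerebellum and 2140 in liver, 13 of the 98 genes higher in cerebellum, among them 6 macrophage, 2 lymphocyte and 3 broadly expressed, and 8 lymphocyte genes higher in liver. By construction it shifts every difference by the same amount, which in these data was toward cerebellum. With dim features left out 8 lymphocyte genes were higher in liver and 0 lymphocyte and 0 broadly expressed genes in cerebellum, since fewer genes were tested. With the 2-fold limit 2600 features were higher in cerebellum and 2397 in liver, 9 lymphocyte genes were higher in liver and 0 macrophage genes in cerebellum. The higher pseudocount and averaged rows each left 0 lymphocyte genes in cerebellum. Signal near 0, as for CLEC1A, CLEC20A and CD70, limits what a difference can show.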
